A study of Zea mays with 12 samples.

Results

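The comparison described here sets 3 maize plants that were wounded and received buffer, but no larva and no regurgitate, against 3 plants that were left untreated. The libraries were taken as the 3 columns of counts named for wounding and the 3 named for control, 6 of the 12 libraries of the series, and the genes as the features with a maize gene identifier, 29723 of 194389 features in the table. All plants were of the inbred line PB130 and were grown in pots in a greenhouse. Wounding meant scratches made with a scalpel on the leaf sheaths below the main ear, each wetted with phosphate buffer and covered with parafilm, and it was done again every other day. Scratching, buffer and parafilm came together in wounded plants and were all absent from untreated plants, so their effects cannot be told apart. The RNA came from the internode under the ear, sampled at day 15 away from any damage and without its sheath, so the sequenced tissue is not the tissue that was scratched. The remaining 6 libraries come from plants that carried larvae of the borer *S. nonagrioides* and from plants whose scratches received its regurgitate in the same buffer. The study's methods give 3 plants per treatment, treated at silking, whereas the sample labels give the VT stage, when the tassel is out, and more plants per genotype.

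In grasses, as in other plants, a wound sets off the synthesis of jasmonic acid from linolenic acid in the chloroplast. The hormone's conjugate with isoleucine removes JAZ repressors, and genes for proteinase inhibitors, secondary metabolites and further jasmonate synthesis are then transcribed, both near the wound and in organs that were not touched. Proteinase inhibitors slow protein digestion in an insect gut, and wip1, a Bowman-Birk inhibitor, was named in maize for its induction by wounding. The internode below the ear is also an organ that builds cell wall, in which cellulose synthases, COBRA-like proteins, fasciclin-like proteins and lignin enzymes act together.

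The libraries were made by MACE, a method that reads 1 piece per transcript, close to its 3′ end. A count therefore does not grow with transcript length, and levels can be set side by side between genes. Wounding libraries held 8144412, 10056972 and 7970625 counts in replicates 1, 2 and 3, and control libraries 8508332, 6474738 and 7158912 counts. Of these counts, 74.4%, 58.4% and 68.0% fell on maize genes in wounding libraries, against 87.5%, 89.7% and 88.4% in control libraries. Most of the rest of the wounding libraries lay on contigs, which are assembled from reads that found no place on the maize genome or transcriptome. Contigs held 17.4%, 34.4% and 24.5% of the counts in wounding libraries, against 4.12%, 2.34% and 3.02% in control libraries, with no overlap between the groups (exact permutation test, two-sided p = 0.1, the smallest p that 3 against 3 libraries allow). Contigs whose best protein match is fungal took 10.9%, 24.8% and 12.4% in wounding libraries, against 0.501%, 0.238% and 0.427% in control libraries, a ratio of means of 41.3 (exact permutation p = 0.1). Of these 19107 contigs, 10299 had a best match named *Gibberella* or *Fusarium*, given here as *Gibberella moniliformis*, a maize stalk and ear mould. These took 9.09%, 19.4% and 5.61% of the counts in wounding libraries, against 0.268%, 0.147% and 0.208% in control libraries. Fungal counts therefore moved with wounding in all 3 libraries, and every result below stands beside them; their part in the results was not tested.

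**Figure D1:**
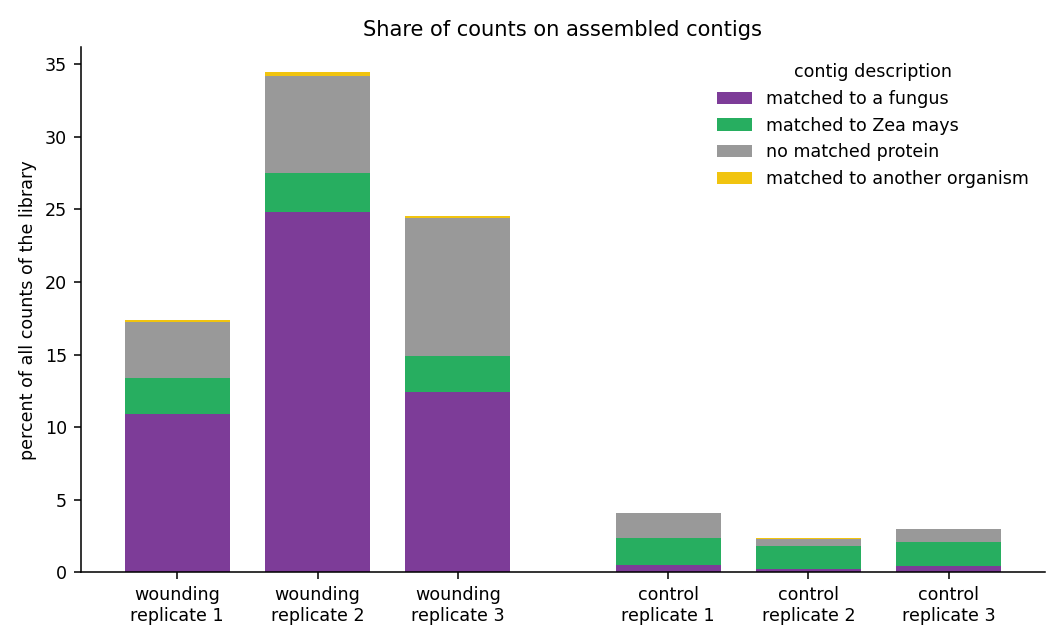
Percent of each library's counts on assembled contigs, with the 3 wounding libraries to the left of the 3 control libraries. Bars are split into contigs matched to a fungus, to Zea mays, to another organism and to no protein. Contigs matched to fungi reach 24.8% in wounding replicate 2 and stay at or below 0.501% in the control libraries.

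The labelled tissue was checked by the summed level of marker genes, in CPM, which are counts scaled to a common total of maize genes by TMM. Zeins, storage proteins of the endosperm that a stem should lack, summed to 0, 1.26 and 1.07 CPM in wounding libraries, against 0, 0.153 and 0.261 CPM in control libraries. Genes described as of pollen, also set as absent from stem, were present. They summed to 202, 240 and 358 CPM in wounding libraries, against 239, 332 and 265 CPM in control libraries. Of 7 tested, 1 was higher and 1 lower by edgeR (28.6%, against 38.8% of all genes tested). Markers of mesophyll, bundle sheath, secondary wall and dividing cells were present in every library, and for none of these lists did the summed CPM of the 3 wounding libraries lie apart from that of the 3 control libraries. Single markers did move. Of 15 tested markers of the secondary wall and vessels, 5 rose and 7 fell (80% called, against 38.8% of all genes tested, by edgeR at an FDR under 0.05; median log2 fold change -1.63). The whole list of 31 summed to 2188, 3178 and 1140.0 CPM in wounding libraries, against 1161, 454 and 694 CPM in control libraries. A single laccase, GRMZM2G094375, stood at 1376, 2379 and 459.9 CPM in wounding libraries, against 14.7, 7.47 and 6.66 CPM in control libraries, a large part of that sum in wounding libraries. Of 24 tested mesophyll markers 5 fell and none rose, of 52 of dividing cells 2 rose and 6 fell, and none of 3 of the bundle sheath was called. The part of such cells in the results was not tested. Fewer cells of a type and less RNA per cell cannot be told apart in such bulk samples. Along the leading principal component of log2 CPM, which carried 76.5% of the variance, the wounding libraries lay at -79.4, -133.9 and -90.3 and the control libraries at 104, 98.6 and 101.1. Wounding libraries were the more uneven in makeup, since the 10 most abundant genes took 11.6%, 13.8% and 14.5% of the CPM in them, against 7.91%, 4.97% and 5.39% in control libraries.

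Of the 29723 maize gene features, 19166 passed the filter on low counts and were tested, 10557 did not pass, and 1046 had no count in any of the 6 libraries. With edgeR's quasi-likelihood test and a Benjamini-Hochberg FDR under 0.05, 3747 genes rose (19.6% of the genes tested) and 3691 fell (19.3%), so that 38.8% of the stem's measured genes were called. The 3 wounding libraries did not overlap the 3 control libraries in 10558 genes (55.1%), and 7385 of these were called (38.5%). With 7438 genes called in all, lack of overlap adds little to a call in the genes named below. Changes were large: 1452 called genes were higher (7.58%) and 1311 were lower (6.84%) by a log2 fold change of at least 2, and 453 were higher (2.36%) and 304 lower (1.59%) by at least 4. The median log2 fold change over all tested genes was -0.01. It moved to -0.44 when libraries were scaled by their maize counts alone, with 2366 genes higher and 6741 lower, and to -0.26 when contigs took part in the scaling, with 2669 higher and 4961 lower. The split into higher and lower therefore depends on the scaling, and log2 fold changes are given relative to the TMM scaling.

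**Figure D2:**
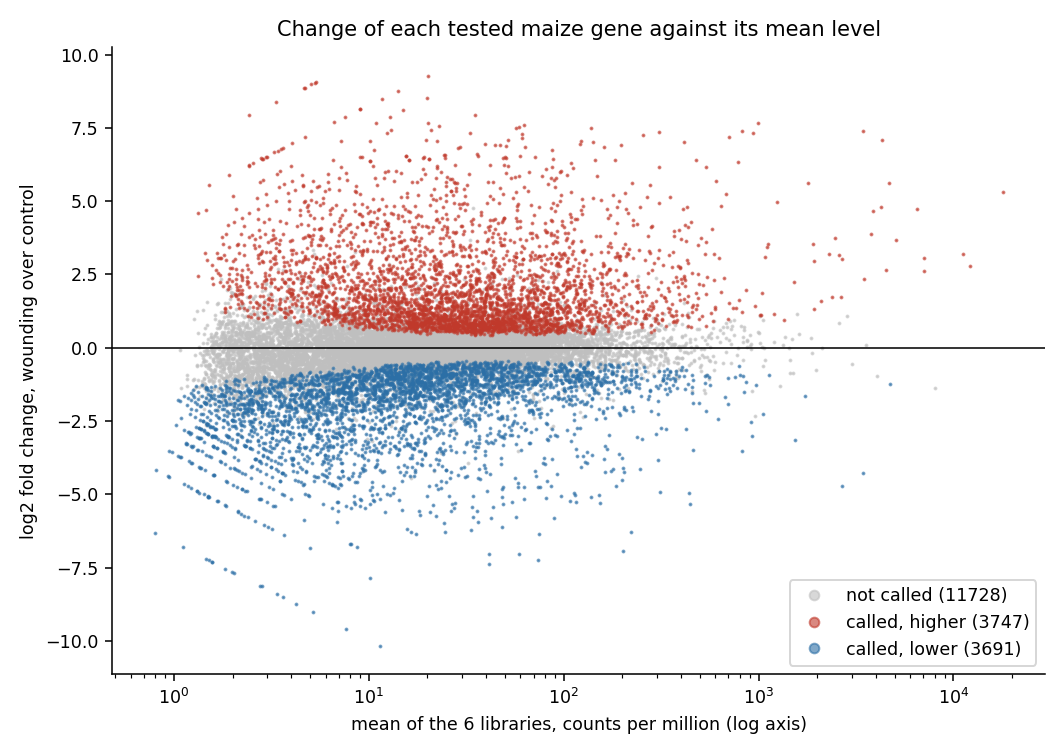
Log2 fold change of wounding over control against mean level (CPM on a log axis) for the 19166 genes tested, 1 point per gene, coloured by the edgeR call. The 3747 higher and the 3691 lower genes are spread over the whole range of levels, and 11728 genes were not called.

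The most abundant transcripts that rose encode inhibitors of proteinases and a thaumatin-like defence protein. MPI (GRMZM2G028393), the maize proteinase inhibitor, stood at 31474, 47640.3 and 25546 CPM in wounding libraries, against 612, 1196 and 852 CPM in control libraries (log2 fold change 5.30 ± 0.66 SE, edgeR FDR = 0.00174). The lowest wounding library lay far above the highest control library. The wound-induced Bowman-Birk inhibitor wip1 (GRMZM2G156632) stood at 13925, 24764 and 24999 CPM in wounding libraries, against 3766, 2686 and 2685 CPM in control libraries (log2 fold change 2.80 ± 0.51 SE, edgeR FDR = 0.00641). A feature that joins the near-identical thaumatin-like genes GRMZM2G006853 and GRMZM2G136372, between which counts could not be divided, stood at 18574, 17517 and 24772 CPM in wounding libraries, against 1650.4, 3045 and 1966 CPM in control libraries (log2 fold change 3.19 ± 0.51 SE, edgeR FDR = 0.00401). For both of these, as for MPI, the lowest wounding library lay above the highest control library. The most abundant transcripts that fell include a glycine-rich cell wall structural protein, GRMZM2G067315, at 401, 111 and 511 CPM in wounding libraries, against 9308, 3486 and 6869.9 CPM in control libraries (log2 fold change -4.26 ± 0.72 SE, edgeR FDR = 0.00461). GRMZM2G024996, which carries no description, stood at 354, 101 and 141 CPM in wounding libraries, against 9274, 3479 and 2775 CPM in control libraries (log2 fold change -4.70 ± 0.75 SE, edgeR FDR = 0.00397). In both, all wounding libraries were below all control libraries.

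**Figure D3:**
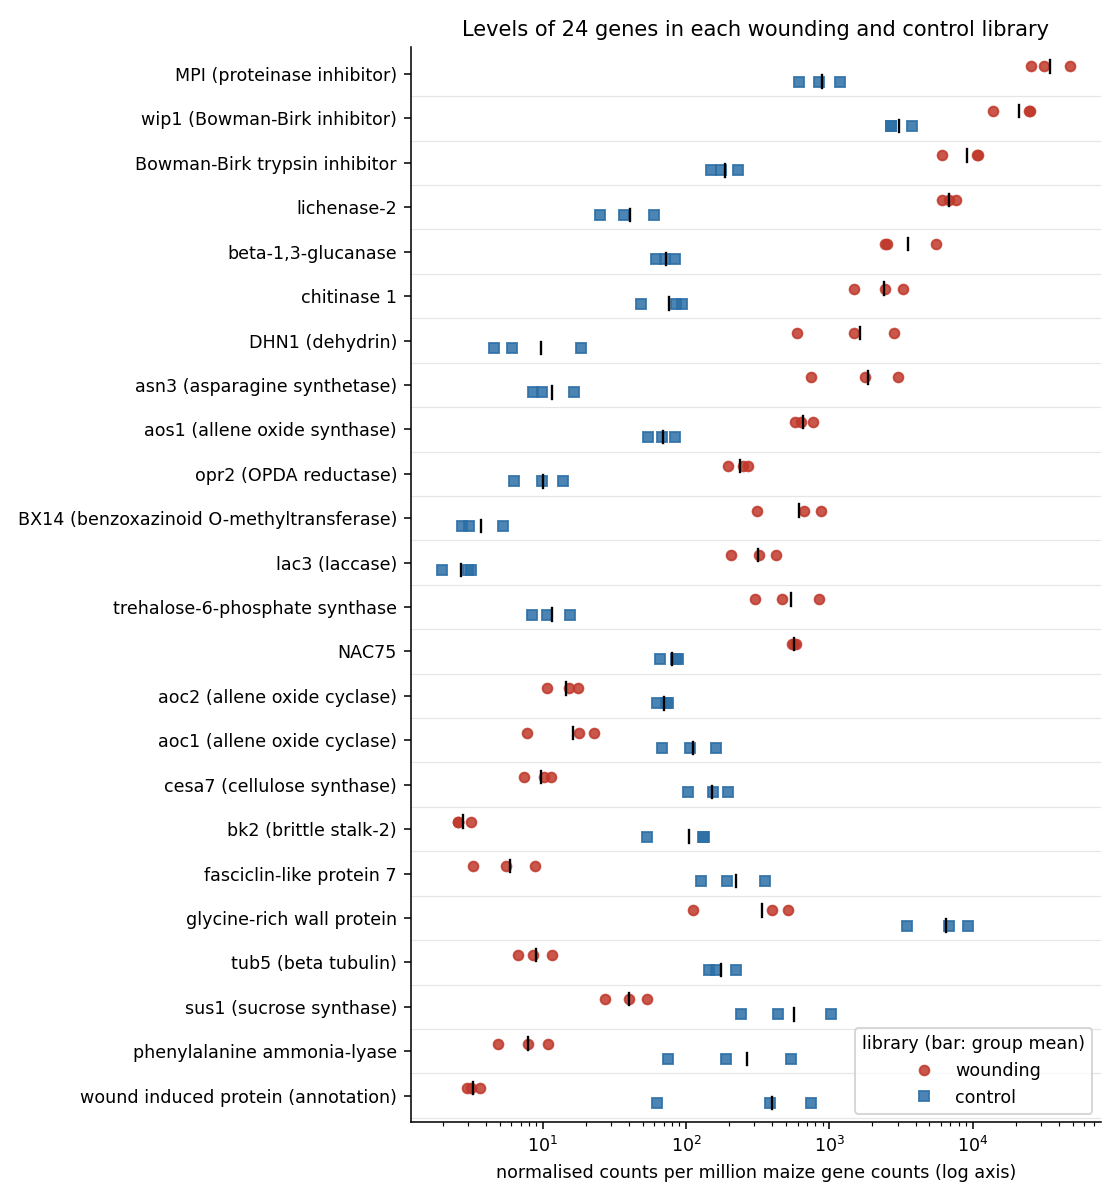
CPM on a log axis in each of the 6 libraries for 24 of the genes described in the text, 14 that rose above 10 that fell, with wounding points drawn above control points in each row. MPI spans 25546 to 47640.3 CPM in the wounding libraries and 612 to 1196 CPM in the control libraries. In no row do the groups overlap, which holds for 7385 of the 7438 called genes.

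The largest rises were in genes near or below detection in the untreated stem. Isoforms of malic enzyme (GRMZM2G404237) and of an anthocyanidin 3-O-glucosyltransferase (GRMZM2G174192), which adds glucose to flavonoids, had no count in any control library and reached 2.55, 5.89 and 23.2 and 6.74, 12.8 and 8.52 CPM in the wounding libraries. Against a floor of 3 counts over the control group, they were at least 76.1-fold and at least 69.6-fold higher. A ribonuclease, GRMZM2G141322, of a class that takes part in phosphate recovery and defence, stood at 37.2, 46.3 and 35.1 CPM in wounding libraries, against 0, 0.152 and 0.131 CPM in control libraries, a ratio of counts of 445 (exact 95% interval 123 to 3687, for counting error only; edgeR FDR = 0.000301). Genes known from drying seeds and from tissues that break down fat were also among these rises. GRMZM2G063287, annotated as embryonic protein DC-8, stood at 15.1, 37.3 and 32 CPM in wounding libraries, against 0, 0.152 and 0 CPM in control libraries (edgeR FDR = 0.000616). The seed maturation protein GRMZM2G448627 stood at 3.28, 44 and 6.6 CPM in wounding libraries, against 0.119, 0 and 0 CPM in control libraries (edgeR FDR = 0.00745). ICL (GRMZM2G056369), the isocitrate lyase of the glyoxylate cycle, stood at 3.46, 42.1 and 8.31 CPM in wounding libraries, against 0.119, 0 and 0 CPM in control libraries (edgeR FDR = 0.006). The wounding libraries differed widely among themselves in these genes, with replicate 2 the highest in all of them. Genes whose groups overlap were not eligible for the largest rises or falls, so the lack of overlap follows from the choice. Xylem cysteine proteinase 2 (GRMZM2G066326), which in Arabidopsis takes part in the death of xylem vessel cells, stood at 5.28, 41.5 and 23 CPM in wounding libraries, against 0, 0 and 0.131 CPM in control libraries (edgeR FDR = 0.00248). Further rises were those of the WRKY factor GRMZM2G304573 (7.65), a protein annotated as induced upon tuberization (GRMZM2G064521, 7.56) and a TMV response protein (GRMZM2G354190, 7.52), as log2 fold changes. By contrast with these low transcripts, lichenase-2 (GRMZM2G137535), a glucanase of the family that cuts β-glucans, rose to 6149.5, 7613 and 6815 CPM in wounding libraries, against 59.8, 36.9 and 24.9 CPM in control libraries (log2 fold change 7.40 ± 0.54 SE, edgeR FDR = 0.00049), with wounding libraries within 1.24-fold of each other.

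The largest falls were in genes that wounding libraries hardly detected. No count was found in the wounding libraries for GRMZM2G017991, named for the VAMP protein SEC22 and by the study for a harpin-induced family, for the subtilisin-like protease GRMZM2G430039, for the aldo/keto reductase AR2 (GRMZM2G059314) or for GRMZM2G010936, a nuclear protein. In control libraries they stood at 20.8, 4.73 and 20.4, 8.12, 7.02 and 6.53, 3.94, 3.81 and 4.18 and 19, 2.14 and 9.92 CPM. Against a floor of 3 counts over the wounding group, wounding was at least 79.6-fold, 36.1-fold, 19.8-fold and 54.9-fold lower. GRMZM2G106445, which is annotated as a wound induced protein, stood at 3.64, 3.16 and 2.98 CPM in wounding libraries, against 743, 62.5 and 389 CPM in control libraries (log2 fold change -6.92 ± 0.96 SE, edgeR FDR = 0.00247). All wounding libraries lay far below every control library, so that a gene named for induction by wounding was lower in the internode of the wounded plants. A protein kinase, GRMZM2G026943, had a single count in wounding libraries and stood at 35.6, 13.4 and 11.5 CPM in control libraries, and a putative transcription regulator, GRMZM2G097884, stood at 0.364, 0.421 and 0.639 CPM in wounding libraries, against 186, 15.1 and 46.2 CPM in control libraries. Both were called (edgeR FDR = 0.00143 and edgeR FDR = 0.00407). Chemocyanin (GRMZM2G177934), a copper protein that guides pollen tubes in lily, stood at 0, 0 and 0.426 CPM in wounding libraries, against 18, 28.2 and 2.09 CPM in control libraries (edgeR FDR = 0.00918). The 12 largest falls also include 3 whose size rests on control replicate 1. The early nodulin 93 genes GRMZM2G147399 and GRMZM2G131421, which carry the same annotation, stood at 0.729, 1.05 and 1.06 CPM in wounding libraries, against 431, 5.03 and 4.96 CPM in control libraries, and at 0.364, 1.05 and 0.426 CPM in wounding libraries, against 239, 2.59 and 2.87 CPM in control libraries. P4H4 (GRMZM5G843555), a prolyl hydroxylase, stood at 0.729, 1.26 and 0.639 CPM in wounding libraries, against 339, 5.64 and 4.83 CPM in control libraries. With control replicate 1 left out, the log2 fold changes of these 3 were -2.38, -2.13 and -2.55 in place of -7.26, -7.03 and -7.03. The calls of all 3 were lost without wounding replicate 1, 2 or 3.

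Genes listed under jasmonate synthesis by their descriptions moved in different directions. The list takes in lipoxygenases and 12-oxophytodienoate reductases whether or not they make jasmonate. A member that fell also carries the symbol of an unrelated gene. Of 20 tested members, 7 rose and 9 fell, against 19.6% higher and 19.3% lower over all genes, and the median log2 fold change was -0.15, against -0.01 over all genes. The lipoxygenases given here, which add oxygen to linolenic and linoleic acid, were chosen after their values were seen and may not be the whole family. Of these, lox3 (GRMZM2G109130), lox4 (GRMZM2G109056), lox5 (GRMZM2G102760) and lox9 (GRMZM2G017616) rose, by log2 fold changes of 1.13, 1.76, 1.86 and 1.98. lox6 (GRMZM2G040095) and lox11 (GRMZM2G009479) fell, by 2.31 and 3.21 on the same scale. lox1 (GRMZM2G156861) fell as well, at 352, 84.4 and 180.4 CPM in wounding libraries, against 2403, 1671 and 861 CPM in control libraries (edgeR FDR = 0.00969). LOX8 (GRMZM2G104843), the chloroplast lipoxygenase whose loss in the tasselseed1 mutant leaves tassels without jasmonate, stood at 24.8, 21 and 16.8 CPM in wounding libraries, against 21.6, 24.1 and 24.1 CPM in control libraries, with overlapping groups (edgeR FDR = 0.549). At the next step, allene oxide synthase aos1 (GRMZM2G067225) stood at 632, 772 and 575 CPM in wounding libraries, against 83.7, 54.3 and 68.5 CPM in control libraries (log2 fold change 3.26 ± 0.26 SE, edgeR FDR = 0.00058). All wounding libraries were above all control libraries. The allene oxide cyclases, which act on its product, went the other way. aoc2 (GRMZM2G415793) stood at 17.5, 10.7 and 15.3 CPM in wounding libraries, against 62.9, 72.3 and 74.4 CPM in control libraries (log2 fold change -2.26 ± 0.22 SE, edgeR FDR = 0.000875). aoc1 (GRMZM2G077316) stood at 22.9, 7.79 and 17.9 CPM in wounding libraries, against 161, 68 and 107 CPM in control libraries (log2 fold change -2.78 ± 0.47 SE, edgeR FDR = 0.00471). The 12-oxophytodienoate reductases split in the same manner. opr2 (GRMZM2G000236) stood at 249, 197 and 272 CPM in wounding libraries, against 6.33, 13.9 and 9.92 CPM in control libraries (log2 fold change 4.58 ± 0.34 SE, edgeR FDR = 0.000499). opr1 (GRMZM2G106303), its close relative, stood at 41.5, 90.5 and 56.4 CPM in wounding libraries, against 2.03, 0.763 and 1.04 CPM in control libraries (edgeR FDR = 0.000607). opr7 (GRMZM2G148281), which with opr8 makes the jasmonic acid of maize, stood at 10.9, 5.47 and 13 CPM in wounding libraries, against 26.2, 20.7 and 30.3 CPM in control libraries (edgeR FDR = 0.0155), also chosen after its values were seen. GRMZM2G091643, annotated by the study as an enzyme acting on the cyclopentanone precursor, had no count in wounding libraries and stood at 3.94, 8.08 and 8.35 CPM in control libraries, at least 33.1-fold lower with wounding. Calls were lost for lox3 without wounding replicate 3 or with scaling by maize counts alone (edgeR FDR = 0.059), for lox4 without control replicate 2, for opr7 without control replicate 3, and for lox11 without wounding replicate 2 or 3 or control replicate 2 or 3.

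Among the JAZ and other TIFY repressors, which jasmonate removes and whose genes it also induces, 8 of 20 tested members rose and 1 fell (45% called, against 38.8% over all genes). Their median log2 fold change of 0.33 turned to -0.10 with scaling by maize counts alone, where 7 were higher and 4 lower. TIFY27 (GRMZM2G089736) stood at 582, 707 and 587 CPM in wounding libraries, against 184, 153 and 108 CPM in control libraries (log2 fold change 2.08 ± 0.26 SE, edgeR FDR = 0.00184). TIFY15 (GRMZM2G005954) stood at 141, 304 and 168 CPM in wounding libraries, against 41.9, 41.2 and 41.2 CPM in control libraries (edgeR FDR = 0.0023). GRMZM5G838098, listed under the names TIFY2 and TIFY3, stood at 114, 304 and 261 CPM in wounding libraries, against 25.4, 19.7 and 9.27 CPM in control libraries (edgeR FDR = 0.00257). In all 3 the wounding libraries lay above every control library, and replicate 2 was the highest. CYP94B12 (GRMZM2G164074), of a cytochrome P450 family that in Arabidopsis oxidises the active jasmonate conjugate, stood at 87.2, 126 and 66 CPM in wounding libraries, against 2.99, 5.64 and 4.96 CPM in control libraries (log2 fold change 4.36 ± 0.36 SE, edgeR FDR = 0.000602).

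**Figure D4:**
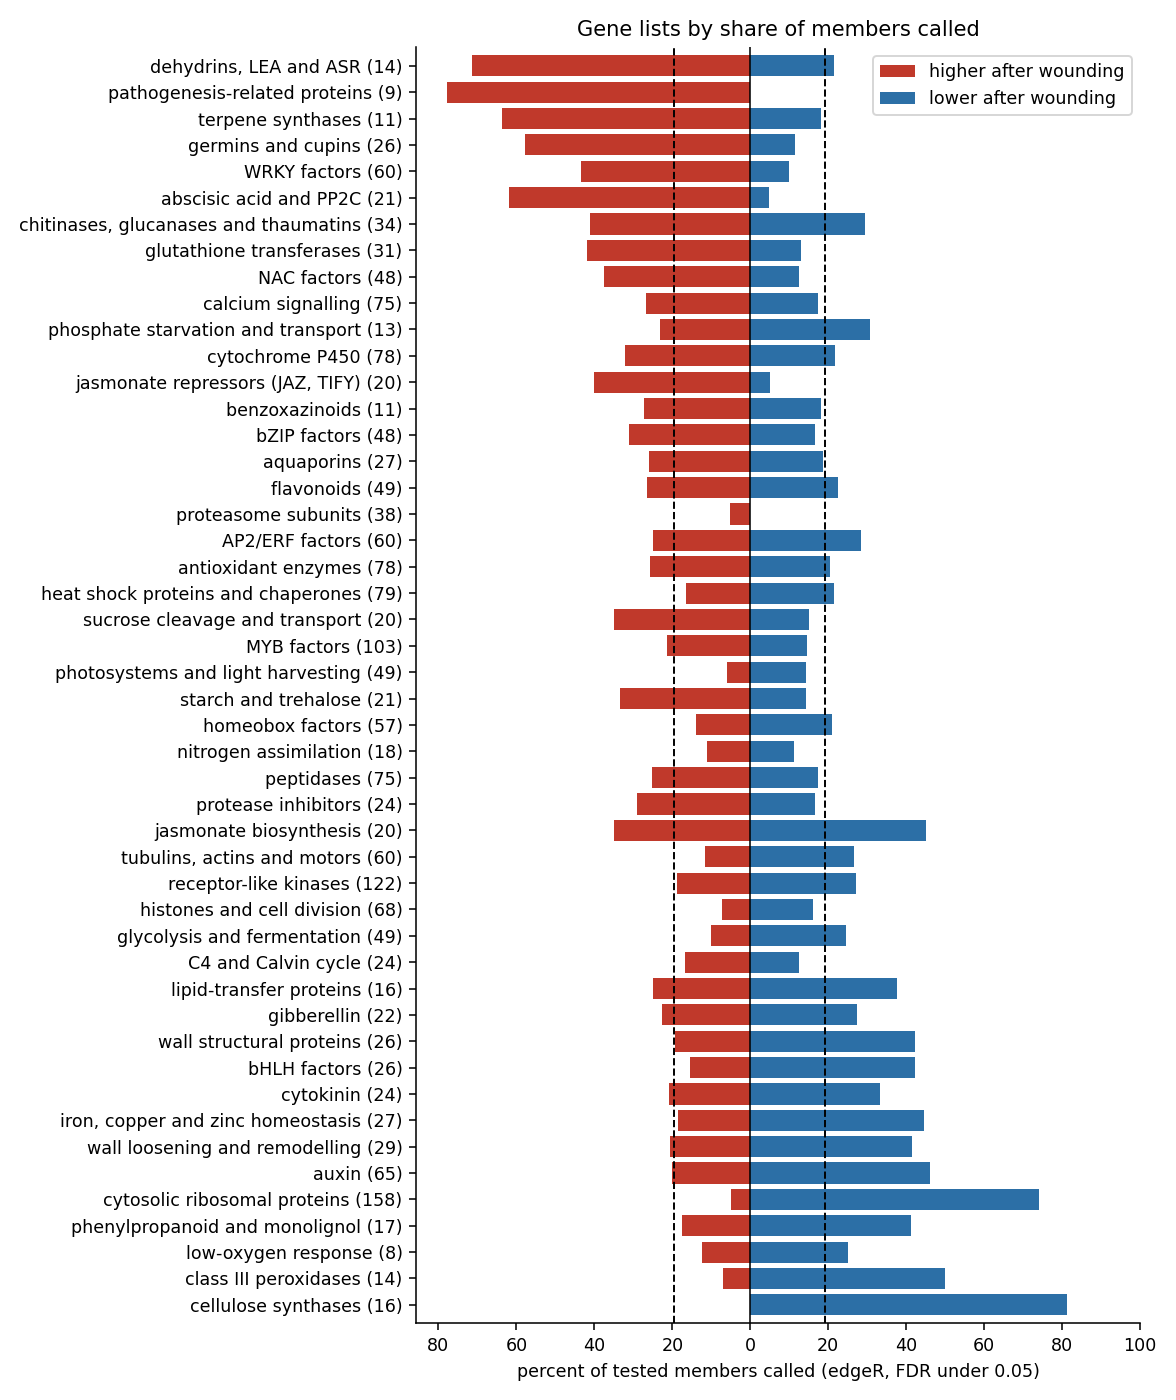
Percent of the tested members of each gene list that were called higher (left bars) or lower (right bars) in wounding than in control libraries, for lists with at least 8 tested members; dashed lines mark the 19.6% and 19.3% called over all maize genes. Cellulose synthases have no member called higher, and pathogenesis-related proteins none called lower.

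Transcripts of proteins that act on an attacker's enzymes or cell walls were among the most abundant of the wounded stem. Of 24 tested protease inhibitors, 7 rose and 4 fell (45.8% called, against 38.8% over all genes). The median log2 fold change of -0.08 was close to that of all genes, and with scaling by maize counts alone 6 inhibitors were higher and 6 lower. Their summed level was 61918, 87458 and 67876 CPM in wounding libraries, against 28921, 14326 and 11745 CPM in control libraries. Beside MPI and wip1, the Bowman-Birk trypsin inhibitor GRMZM2G075315 stood at 6074, 10847 and 10654 CPM in wounding libraries, against 176, 149 and 232 CPM in control libraries (log2 fold change 5.63 ± 0.49 SE, edgeR FDR = 0.000686). Cystatin cc6 (GRMZM2G401328), an inhibitor of cysteine proteinases, stood at 57.4, 48.8 and 57.3 CPM in wounding libraries, against 1.67, 1.07 and 0.522 CPM in control libraries (edgeR FDR = 0.000354). The serine proteinase inhibitor GRMZM2G108847 stood at 512, 545 and 479 CPM in wounding libraries, against 44.2, 77.6 and 86.1 CPM in control libraries (edgeR FDR = 0.000992). All 3 wounding libraries were above all controls in each. Other inhibitors fell: cystatin cc3 (GRMZM2G440968) had 10.4, 12 and 18.3 CPM in wounding libraries, against 37.1, 36 and 29.8 CPM in control libraries (edgeR FDR = 0.00645), and GRMZM2G110567, annotated by the study as a trypsin inhibitor heavy chain, had 22.9, 7.37 and 27.5 CPM in wounding libraries, against 501, 403 and 111 CPM in control libraries (edgeR FDR = 0.00502). The count of called inhibitors, 11, dropped to 7 without control replicate 2 and also without control replicate 3.

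Of 9 tested pathogenesis-related proteins, 7 rose and none fell, with a median log2 fold change of 2.83. PRms (AC205274.3_FG001), a maize protein known from fungal infection of seeds, stood at 798, 1551 and 1647 CPM in wounding libraries, against 13.6, 47.9 and 43.3 CPM in control libraries (log2 fold change 5.25 ± 0.60 SE, edgeR FDR = 0.00135). GRMZM2G117989, described as Win1 and by the study as pathogenesis-related gene 3, stood at 144, 45 and 423 CPM in wounding libraries, against 3.7, 3.97 and 2.48 CPM in control libraries (edgeR FDR = 0.00303). The pathogenesis-related protein 10 gene GRMZM2G112488 stood at 124, 95.6 and 203 CPM in wounding libraries, against 20.5, 20.3 and 17 CPM in control libraries (edgeR FDR = 0.00115). The 2 members not called were prp2 (GRMZM2G102356, log2 fold change 2.19, edgeR FDR = 0.0514) and the joined PR10 feature GRMZM2G112524 with GRMZM2G112538 (-1.49, edgeR FDR = 0.234). DESeq2 called prp2 higher (adjusted p = 0.0115), and without control replicate 1 the PR10 feature had a log2 fold change of 0.06. The enzymes that cut fungal walls, chitinases and β-1,3-glucanases, and the thaumatins had 14 members higher and 10 lower of 34 tested, with a median of 0.78. The β-1,3-glucanase glucA (GRMZM2G125032) stood at 2545, 2433 and 5591 CPM in wounding libraries, against 61.3, 71.2 and 84.3 CPM in control libraries (log2 fold change 5.61 ± 0.49 SE, edgeR FDR = 0.000698), and chitinase 1 (GRMZM2G358153) at 1483, 3278 and 2432 CPM in wounding libraries, against 48.4, 94.3 and 85.2 CPM in control libraries (edgeR FDR = 0.000858). Zeamatin (GRMZM2G374971), an antifungal thaumatin-like protein first isolated from maize seed, stood at 861, 1492 and 1371 CPM in wounding libraries, against 26.6, 37.1 and 65.6 CPM in control libraries (edgeR FDR = 0.000859). In all 3 the groups were far apart. Members of the same list that fell include glucan endo-1,3-β-glucosidase 4 (GRMZM2G125241) at 5.46, 3.37 and 4.05 CPM in wounding libraries, against 86.3, 60.6 and 77.8 CPM in control libraries (edgeR FDR = 0.000354) and bk4 (GRMZM2G168364), an endochitinase A2 by its description, at 9.84, 14.5 and 11.9 CPM in wounding libraries, against 72.3, 47.4 and 56.4 CPM in control libraries (edgeR FDR = 0.00102). Fungal contig counts, given above, were higher in the same 3 wounding libraries.

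Germins and cupins, small barrel proteins of the apoplast of which some produce hydrogen peroxide, had 15 members higher and 3 lower of 26 tested, with a median log2 fold change of 1.36. The germin-like protein GRMZM2G045809 stood at 1472, 680.3 and 1409 CPM in wounding libraries, against 19.6, 25 and 24.9 CPM in control libraries (log2 fold change 5.68 ± 0.41 SE, edgeR FDR = 0.000483). zmCL2-2 (GRMZM2G034724) stood at 235, 558 and 416 CPM in wounding libraries, against 14, 18.3 and 13.3 CPM in control libraries (edgeR FDR = 0.000603). Lipid-transfer proteins were divided, with 4 higher and 6 lower of 16 tested and a median of -0.43. The abundant member GRMZM2G387360 stood at 5415, 4539.5 and 3855 CPM in wounding libraries, against 61, 371 and 604 CPM in control libraries (log2 fold change 3.74 ± 0.80 SE, edgeR FDR = 0.0109), whereas GRMZM2G031354 stood at 6.92, 3.58 and 2.98 CPM in wounding libraries, against 254, 146 and 74.8 CPM in control libraries (edgeR FDR = 0.00125).

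In specialised metabolism, genes of volatile and antifungal terpenes were called higher more often than lower, those of lignin precursors lower more often than higher, and those of flavonoids in both directions. Of 11 tested terpene synthases and terpene-modifying enzymes, 7 rose and 2 fell, with a median log2 fold change of 2.56. TPS7 (GRMZM2G019183) stood at 140.4, 215 and 156 CPM in wounding libraries, against 15.4, 14.6 and 12.1 CPM in control libraries (log2 fold change 3.60 ± 0.24 SE, edgeR FDR = 0.000402). an2 (GRMZM2G044481), the ent-copalyl diphosphate synthase that feeds the antifungal kauralexins, stood at 123, 199 and 180.4 CPM in wounding libraries, against 7.52, 15.3 and 17.6 CPM in control libraries (log2 fold change 3.64 ± 0.37 SE, edgeR FDR = 0.000987). GRMZM2G122654, annotated by the study as an ent-cassadiene hydroxylase, stood at 33.5, 82.3 and 119 CPM in wounding libraries, against 0.955, 0.152 and 0.652 CPM in control libraries (edgeR FDR = 0.000892). None of the 3 overlapped the controls. The monoterpene synthase tps26 (GRMZM2G030583) fell, at 3.64, 1.89 and 2.13 CPM in wounding libraries, against 59.4, 38.9 and 43.6 CPM in control libraries (edgeR FDR = 0.000499), and the ent-kaurene oxidase GRMZM2G059308, of the gibberellin pathway, also fell (-2.57, edgeR FDR = 0.0082).

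Benzoxazinoids, the indole-derived toxins of young maize, had 3 of 11 tested genes higher and 2 lower (45.45% called, against 38.8% over all genes). Their median log2 fold change of 0.28 turned to -0.16 with scaling by maize counts alone, where 3 were higher and 4 lower. The changes sat in particular genes. TSA (GRMZM5G841619), listed as of the indole-3-glycerol phosphate lyase family, stood at 391, 369 and 421 CPM in wounding libraries, against 103, 64.8 and 72.2 CPM in control libraries (edgeR FDR = 0.00102). Whether TSA serves benzoxazinoid synthesis was not tested. Of the 12 genes listed, GRMZM2G085381 had too few counts to be tested. The P450 enzyme BX3 (GRMZM2G167549) stood at 73.2, 154 and 81.2 CPM in wounding libraries, against 16.5, 13.1 and 33 CPM in control libraries (edgeR FDR = 0.00753). BX4 (GRMZM2G172491), the P450 of the following step, was at 1.27, 1.26 and 0.852 CPM in wounding libraries, against 18.5, 34 and 63.8 CPM in control libraries (log2 fold change -5.07 ± 0.56 SE, edgeR FDR = 0.00123), opposite in direction to BX3. The glucosyltransferase BX8 (GRMZM2G085054), which stores the toxin as a glucoside, was at 10.6, 6.31 and 14.7 CPM in wounding libraries, against 36.9, 33.4 and 33.3 CPM in control libraries (edgeR FDR = 0.00499). BX14 (GRMZM2G127418), an O-methyltransferase that makes late methylated benzoxazinoids, was at 311, 871 and 664 CPM in wounding libraries, against 5.25, 3.05 and 2.74 CPM in control libraries (log2 fold change 7.37 ± 0.55 SE, edgeR FDR = 0.000499), the largest log2 fold change of the list. The remaining 6 tested members, among them bx2 (GRMZM2G085661, log2 fold change 0.06, edgeR FDR = 0.853) and BX9 (GRMZM2G161335, -0.24, edgeR FDR = 0.384), named after their values were seen, were not called. BX9 was called lower with scaling by maize counts alone (edgeR FDR = 0.0274).

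Flavonoid genes had 13 members higher and 11 lower of 49 tested (49.0% called, against 38.8% over all genes). Their median of 0.08 on the log2 scale turned its sign with the scaling, and with scaling by maize counts alone 13 were higher and 15 lower. whp1 (GRMZM2G151227), a chalcone synthase at the entry of the pathway, stood at 85.6, 128 and 92.2 CPM in wounding libraries, against 1.19, 1.07 and 1.83 CPM in control libraries (log2 fold change 6.20 ± 0.31 SE, edgeR FDR = 0.000301). GRMZM2G152175, described as a dihydroflavonol-4-reductase, stood at 101, 90.9 and 88.4 CPM in wounding libraries, against 5.97, 5.19 and 7.18 CPM in control libraries (edgeR FDR = 0.000301), while a flavonoid glucosyltransferase, CGTb (GRMZM2G383404), stood at 0.911, 0.631 and 0.639 CPM in wounding libraries, against 55.7, 40.1 and 48.4 CPM in control libraries (edgeR FDR = 0.000301). The entry of the pathway and this decorating enzyme moved in opposite directions, with no overlap in either. Another glucosyltransferase of the list, GRMZM2G174192, rose like the entry enzyme, from no count in any control library (edgeR FDR = 0.00156). In the phenylpropanoid and monolignol list, which leads to lignin, 3 rose and 7 fell of 17 tested, with a median of -1.05. Phenylalanine ammonia-lyases, the entry enzymes, were split: GRMZM2G170692 had 46.4, 52.6 and 53 CPM in wounding libraries, against 6.33, 3.36 and 6.66 CPM in control libraries (edgeR FDR = 0.000655), but GRMZM2G441347, the more abundant in untreated stem, had 10.9, 4.84 and 7.88 CPM in wounding libraries, against 540.2, 74.9 and 190.2 CPM in control libraries (log2 fold change -5.08 ± 0.80 SE, edgeR FDR = 0.00371). Of the O-methyltransferases of the monolignols, caffeoyl-CoA O-methyltransferase 2 (GRMZM2G099363) fell to 10.7, 5.26 and 8.73 CPM in wounding libraries, against 99.4, 58.1 and 77.3 CPM in control libraries (edgeR FDR = 0.000953) and the caffeic acid 3-O-methyltransferase AC196475.3_FG004 to 17.1, 6.1 and 9.37 CPM in wounding libraries, against 175, 94.6 and 176 CPM in control libraries (edgeR FDR = 0.0015). BM1 (GRMZM5G844562), the cinnamyl alcohol dehydrogenase whose loss gives brown midribs, stood at 24, 4.84 and 24.7 CPM in wounding libraries, against 302, 170.1 and 229.7 CPM in control libraries (edgeR FDR = 0.00403). Laccases and class III peroxidases, both able to join monolignols into lignin, went apart. Of 5 tested laccases 4 rose and none fell (median log2 fold change 5.08), and of 14 tested peroxidases 1 rose and 7 fell (median -2.16). lac3 (GRMZM2G169033) stood at 322, 425 and 207 CPM in wounding libraries, against 2.99, 1.98 and 3.13 CPM in control libraries (log2 fold change 6.86 ± 0.39 SE, edgeR FDR = 0.000301). laccase-7 (GRMZM2G094375) stood at 1376, 2379 and 459.9 CPM in wounding libraries, against 14.7, 7.47 and 6.66 CPM in control libraries (edgeR FDR = 0.00114). Peroxidase 70 (GRMZM2G025441) stood at 7.29, 3.58 and 5.75 CPM in wounding libraries, against 227, 144 and 193 CPM in control libraries (log2 fold change -5.07 ± 0.34 SE, edgeR FDR = 0.000402).

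Genes that build the cell wall were called lower more often than higher. Of 16 tested cellulose synthases and cellulose synthase-like genes, 13 fell and none rose, with a median log2 fold change of -2.45, and none of the 16 had a positive log2 fold change under the TMM scaling. cesa7 (GRMZM2G025231) stood at 10.2, 7.37 and 11.5 CPM in wounding libraries, against 196, 104 and 155 CPM in control libraries (log2 fold change -3.96 ± 0.32 SE, edgeR FDR = 0.000572). cesa2 (GRMZM2G027723) stood at 4.92, 2.53 and 3.2 CPM in wounding libraries, against 60.6, 31 and 42.7 CPM in control libraries (edgeR FDR = 0.000904). CesA-1 (GRMZM2G112336) stood at 14.6, 20 and 16.6 CPM in wounding libraries, against 77.3, 56 and 64.3 CPM in control libraries (edgeR FDR = 0.00105). These are the subunits that make the cellulose of the growing, primary wall, and in each the highest wounding library lay below the lowest control library. CesA12 (GRMZM2G142898), of the secondary wall and named after its values were seen, stood at 6.01, 2.53 and 4.05 CPM in wounding libraries, against 10.3, 1.83 and 2.61 CPM in control libraries, with overlapping groups (edgeR FDR = 0.811). CesA12 does not stand for all genes of that wall. The lowest log2 fold change among the cellulose synthases, -6.85, was also the lowest among the markers of the secondary wall and vessels. Wall structural proteins had 5 higher and 11 lower of 26 tested (median -0.74). bk2 (GRMZM2G109326), the COBRA-like protein without which maize stalks break, stood at 2.55, 3.16 and 2.56 CPM in wounding libraries, against 133, 53.7 and 131 CPM in control libraries (log2 fold change -5.26 ± 0.43 SE, edgeR FDR = 0.000604). Its relative Bk2L3 (GRMZM5G826714) stood at 3.83, 2.32 and 3.41 CPM in wounding libraries, against 108, 42.4 and 64.3 CPM in control libraries (edgeR FDR = 0.000858). The fasciclin-like arabinogalactan protein GRMZM2G021794 stood at 3.28, 8.84 and 5.54 CPM in wounding libraries, against 354, 127 and 192 CPM in control libraries (edgeR FDR = 0.00102). Rises in the same list include the proline-rich protein GRMZM2G174719, at 369.6, 1075 and 438 CPM in wounding libraries, against 71.8, 70.5 and 65.8 CPM in control libraries (edgeR FDR = 0.00256).

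Wall loosening and remodelling enzymes had 6 members higher and 12 lower of 29 tested, with a median of -0.80, while their summed CPM overlapped between the groups. expB2 (GRMZM2G021621), a β-expansin that loosens grass walls, stood at 6.38, 5.89 and 6.6 CPM in wounding libraries, against 34.2, 57.8 and 45.4 CPM in control libraries (edgeR FDR = 0.000641). The xyloglucan endotransglucosylase GRMZM2G413044 stood at 0.364, 0.421 and 0.426 CPM in wounding libraries, against 48.8, 26.8 and 17.4 CPM in control libraries (edgeR FDR = 0.000728). An expansin-like gene, GRMZM2G026147, moved the other way, at 131, 207 and 119 CPM in wounding libraries, against 9.91, 8.24 and 5.87 CPM in control libraries (log2 fold change 4.24 ± 0.32 SE, edgeR FDR = 0.000508). Among tubulins, actins and motor proteins, 7 rose and 16 fell of 60 tested, with a median of -0.22. The share called, 38.3%, was near the 38.8% over all genes. The β-tubulin tub5 (GRMZM2G133802) stood at 6.74, 11.6 and 8.52 CPM in wounding libraries, against 223, 144 and 162 CPM in control libraries (log2 fold change -4.30 ± 0.30 SE, edgeR FDR = 0.000449). tub6 (GRMZM2G071790) stood at 3.64, 3.58 and 6.39 CPM in wounding libraries, against 101, 62.7 and 56.1 CPM in control libraries (edgeR FDR = 0.000693). The 23 called members of this list became 15, 14 and 13 without control replicates 1, 2 and 3. Histones and cell division genes had 5 higher and 11 lower of 68 tested, and 4 higher and 27 lower with scaling by maize counts alone. Their share called, 23.5%, was below that over all genes. cki2 (GRMZM2G101613), an inhibitor of cyclin-dependent kinases, stood at 205, 268 and 138 CPM in wounding libraries, against 37.4, 32.8 and 29.1 CPM in control libraries (edgeR FDR = 0.00112). A histone H2A gene, GRMZM2G003306, stood at 22.2, 22.5 and 57.7 CPM in wounding libraries, against 154, 269 and 150.0 CPM in control libraries (edgeR FDR = 0.00645). Without wounding replicate 2, 9 members of that list were called in place of 16.

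Cytosolic ribosomal proteins, the parts of the translation machinery, were called lower far more often than higher. Of 158 tested, 117 fell and 8 rose, against 19.3% and 19.6% over all genes, with a median log2 fold change of -1.01. The falls were shallow. 60S ribosomal protein L2 (GRMZM2G072729) stood at 19.7, 12 and 16.4 CPM in wounding libraries, against 38.7, 50.2 and 37.6 CPM in control libraries (log2 fold change -1.39 ± 0.23 SE, edgeR FDR = 0.00455). 40S ribosomal protein S15 (GRMZM2G102075) stood at 29.1, 28 and 35.8 CPM in wounding libraries, against 68.9, 92.1 and 67.1 CPM in control libraries (edgeR FDR = 0.00354). The number called, 125 in both directions, was 77 without wounding replicate 2 and 74 without control replicate 2. Against this trend, 60S ribosomal protein L10 (GRMZM2G087233) stood at 733, 1753 and 855 CPM in wounding libraries, against 223, 209 and 214 CPM in control libraries (edgeR FDR = 0.00391). That gene belongs to a set of common transcripts in which wounding replicate 2, the library with the most fungal counts, was the highest. HSP70 (GRMZM2G310431), a chaperone, stood at 371, 1415 and 412 CPM in wounding libraries, against 58.2, 46.1 and 32.4 CPM in control libraries (edgeR FDR = 0.00346). ACT1 (GRMZM2G126010), an actin, stood at 820.2, 1481 and 728 CPM in wounding libraries, against 267, 281 and 256 CPM in control libraries (edgeR FDR = 0.00477), a call lost in the fit of all 12 libraries (edgeR FDR = 0.0896). 60S ribosomal protein L30 (GRMZM2G027728) stood at 447, 1190.1 and 419.8 CPM in wounding libraries, against 124, 101 and 90.1 CPM in control libraries (edgeR FDR = 0.00473). In these 4 genes the wounding libraries lay above all controls, replicate 2 lay furthest, and their fungal shares were 10.9%, 24.8% and 12.4%. The part of fungal reads in these levels was not tested. Of 38 proteasome subunits, 2 were called, both higher, in a list with a median log2 fold change of 0.05, whereas with scaling by maize counts alone none was higher and 11 were lower (median -0.38). Neither call was kept without wounding replicate 3, control replicate 1 or control replicate 3.

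**Figure D5:**
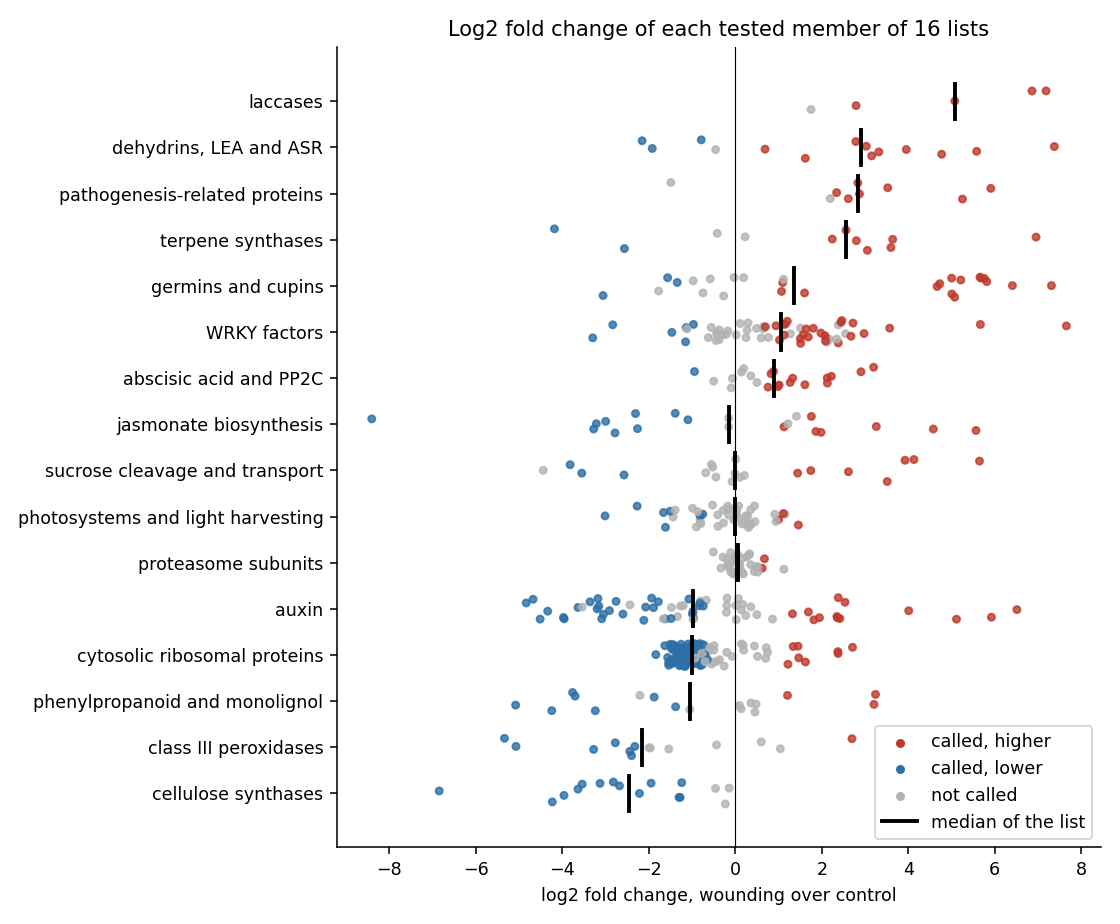
Log2 fold change of wounding over control for each tested member of 16 gene lists, 1 point per gene, with the median of each list as a bar. Cellulose synthases lie below 0 throughout with a median of -2.45, and dehydrins, LEA and ASR proteins have a median of 2.91; these medians are relative to the TMM scaling.

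Among the other hormones, auxin and cytokinin genes were more often called lower, and abscisic acid genes more often higher. For auxin, the hormone of elongation and vascular patterning, 13 genes rose and 30 fell of 65 tested, with a median log2 fold change of -0.98. An auxin influx carrier, GRMZM2G127949, stood at 26, 15.8 and 22.4 CPM in wounding libraries, against 219.8, 178 and 192 CPM in control libraries (log2 fold change -3.20 ± 0.24 SE, edgeR FDR = 0.0005). The Aux/IAA repressor gene GRMZM2G147243 stood at 41.2, 13.9 and 30.7 CPM in wounding libraries, against 248, 356 and 467 CPM in control libraries (edgeR FDR = 0.00175). BIF4 (GRMZM5G864847), an Aux/IAA protein needed for the ear and tassel, stood at 0.729, 0.21 and 0.426 CPM in wounding libraries, against 9.44, 6.56 and 6.79 CPM in control libraries (edgeR FDR = 0.00127). Genes for enzymes that bind auxin to amino acids, and so take it out of use, were among those that rose. GRMZM2G033359, annotated by the study as an amido synthetase, stood at 63.6, 31.6 and 19.4 CPM in wounding libraries, against 0.478, 0.61 and 0.131 CPM in control libraries (edgeR FDR = 0.000941). GH3 (GRMZM2G378106) stood at 30.8, 95.8 and 66.7 CPM in wounding libraries, against 1.67, 0.305 and 1.04 CPM in control libraries (log2 fold change 5.92 ± 0.62 SE, edgeR FDR = 0.00106). The auxin-repressed protein gene GRMZM2G073755 stood at 85.2, 70.3 and 77.7 CPM in wounding libraries, against 21.9, 21.7 and 22.7 CPM in control libraries (edgeR FDR = 0.000665).

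For cytokinin, 5 genes rose and 8 fell of 24 tested (median log2 fold change -0.78), and with scaling by maize counts alone none was called higher and 12 lower. The response regulators RR7 (GRMZM2G096171) and RR6 (GRMZM2G129954), which cytokinin induces, stood at 10.6, 13.5 and 12.6 CPM in wounding libraries, against 116, 62.2 and 111 CPM in control libraries, and at 26.8, 8 and 16.2 CPM in wounding libraries, against 173, 97.5 and 169.8 CPM in control libraries (edgeR FDR = 0.00087 and edgeR FDR = 0.00309). RR8 (GRMZM2G099797) differed from these, at 17.9, 20.8 and 19.2 CPM in wounding libraries, against 12.1, 8.85 and 9.27 CPM in control libraries (edgeR FDR = 0.0117), a call lost with scaling by maize counts alone (edgeR FDR = 0.0695) and in the fit of all 12 libraries (edgeR FDR = 0.0566). The 13 called cytokinin genes became 8 without wounding replicate 2, control replicate 2 or control replicate 3. For gibberellin, 5 rose and 6 fell of 22 tested (50% called, against 38.8% over all genes, median -0.70). Of the genes described as gibberellin receptor GID1L2, GRMZM2G156310 stood at 37, 29 and 27.1 CPM in wounding libraries, against 7.17, 7.32 and 5.87 CPM in control libraries (edgeR FDR = 0.000859) and GRMZM2G049675 at 0.546, 0.21 and 0 CPM in wounding libraries, against 11.9, 10.4 and 11.9 CPM in control libraries (edgeR FDR = 0.00109), opposite in direction. ga2ox4 (GRMZM2G153359), named by the study as a gibberellin 2-oxidase, which inactivates the hormone, stood at 4.01, 0.631 and 3.2 CPM in wounding libraries, against 70.8, 40 and 53 CPM in control libraries (edgeR FDR = 0.00153). Of the genes of ethylene synthesis 5 were tested, with 1 higher and 1 lower (40% called, against 38.8% over all genes). Without control replicate 2, 1 of these calls was lost. The lower member, the aminocyclopropanecarboxylate oxidase GRMZM2G013448, stood at 4.74, 6.31 and 5.54 CPM in wounding libraries, against 1013, 33.9 and 260.4 CPM in control libraries (edgeR FDR = 0.00764), with control libraries far apart from each other but all above the wounding libraries.

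Genes of abscisic acid and of protein phosphatases 2C, the family that holds its signal in check, were mostly called in 1 direction, with 13 higher and 1 lower of 21 tested and a median log2 fold change of 0.88. PP2C16 (GRMZM2G082487) stood at 142, 278 and 173 CPM in wounding libraries, against 13, 30.2 and 21.5 CPM in control libraries (log2 fold change 3.20 ± 0.40 SE, edgeR FDR = 0.00174). PP2C11 (GRMZM2G308615) stood at 129, 319.9 and 233 CPM in wounding libraries, against 40.6, 57 and 58.7 CPM in control libraries (edgeR FDR = 0.0046). Dehydrins, LEA and ASR proteins, which protect cells in drying tissue and many of which abscisic acid induces, had 10 higher and 3 lower of 14 tested (median 2.91). DHN1 (GRMZM2G079440), the dehydrin also known as RAB17, stood at 593, 1489 and 2833 CPM in wounding libraries, against 18.6, 4.58 and 6.13 CPM in control libraries (log2 fold change 7.38 ± 0.90 SE, edgeR FDR = 0.00168). The LEA protein gene MGL3 (GRMZM2G096475) stood at 78.3, 155 and 253 CPM in wounding libraries, against 7.4, 0.763 and 1.7 CPM in control libraries (edgeR FDR = 0.00344). An ASR gene, GRMZM2G052100, stood at 5476, 5232 and 3601 CPM in wounding libraries, against 521, 822 and 413 CPM in control libraries (edgeR FDR = 0.0023). In the dehydrin and the LEA gene, wounding replicate 3 was the highest, and in all 3 no wounding library came near a control library. asr1 (GRMZM2G136910) went the other way, at 58.7, 83.4 and 106 CPM in wounding libraries, against 587, 171 and 347 CPM in control libraries (edgeR FDR = 0.0115). Aquaporins, the channels for water, had 7 higher and 5 lower of 27 tested (44.4% called, against 38.8% over all genes). Their median of 0.14 changed sign with the scaling, and 6 were higher and 8 lower with scaling by maize counts alone. The NIP-type GRMZM2G126582 stood at 63, 115 and 66.9 CPM in wounding libraries, against 3.58, 5.8 and 6.92 CPM in control libraries (edgeR FDR = 0.000788). NIP2-2 (GRMZM2G137108) stood at 30.2, 6.53 and 10.9 CPM in wounding libraries, against 161, 305 and 274 CPM in control libraries (edgeR FDR = 0.00336).

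In sugar and nitrogen metabolism single genes moved far, in both directions. Of 20 tested genes of sucrose cleavage and transport, 7 rose and 3 fell (median log2 fold change -0.00). The test called 50% of the sucrose genes, 47.6% of those of starch and trehalose and 22.2% of those of nitrogen assimilation, against 38.8% over all genes. Enzymes that split sucrose moved in opposite directions. The invertases IVR1 (GRMZM2G394450) and incw1 (GRMZM2G139300), of the vacuole and of the cell wall, stood at 62.1, 134 and 59.6 CPM in wounding libraries, against 1.07, 1.22 and 2.74 CPM in control libraries, and at 419.7, 1402 and 650.1 CPM in wounding libraries, against 56.6, 53.5 and 30.9 CPM in control libraries (edgeR FDR = 0.000788 and edgeR FDR = 0.00195). sus1 (GRMZM2G152908), a sucrose synthase, which keeps the energy of the bond in UDP-glucose for cellulose and starch, stood at 53.6, 27.4 and 39.8 CPM in wounding libraries, against 1029, 242 and 437 CPM in control libraries (log2 fold change -3.82 ± 0.59 SE, edgeR FDR = 0.00352). Sucrose-phosphatase 2 (GRMZM2G097641), which completes sucrose synthesis, stood at 50.6, 63.1 and 47.7 CPM in wounding libraries, against 6.93, 2.59 and 4.44 CPM in control libraries (edgeR FDR = 0.00092). sps1 (GRMZM5G875238), the synthase before it, stood at 7.83, 1.68 and 7.03 CPM in wounding libraries, against 25, 40.1 and 34.5 CPM in control libraries (edgeR FDR = 0.00704). Starch and trehalose genes had 7 higher and 3 lower of 21 tested (median -0.02), and with scaling by maize counts alone they had 6 higher and 5 lower, and the sucrose genes 6 in each direction. The trehalose-6-phosphate synthase GRMZM2G122231, of a pathway whose product signals sugar supply, stood at 304, 854 and 466 CPM in wounding libraries, against 15.5, 10.7 and 8.35 CPM in control libraries (log2 fold change 5.55 ± 0.50 SE, edgeR FDR = 0.000767). Starch branching enzyme IIa (GRMZM2G073054) stood at 8.93, 8.63 and 14.3 CPM in wounding libraries, against 101, 102 and 105 CPM in control libraries (log2 fold change -3.27 ± 0.24 SE, edgeR FDR = 0.000492).

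Of 18 tested genes of nitrogen assimilation, 2 rose and 2 fell (median -0.05), and 2 of the 4 calls were lost without control replicate 3. asn3 (GRMZM2G053669), an asparagine synthetase of the kind that loads nitrogen for transport out of ageing tissue, stood at 1778, 3036 and 751 CPM in wounding libraries, against 16.5, 9.91 and 8.48 CPM in control libraries (log2 fold change 7.31 ± 0.68 SE, edgeR FDR = 0.00084). A glutamate dehydrogenase, GRMZM2G427097, stood at 143, 396 and 83.3 CPM in wounding libraries, against 11.2, 11.3 and 9.14 CPM in control libraries (edgeR FDR = 0.0026). Both were above all controls in every wounding library, and replicate 2 was the highest in both. Genes of the photosystems and light harvesting had 3 higher and 7 lower of 49 tested, with a median of -0.01, and 2 higher and 14 lower with scaling by maize counts alone. The test called 20.4% of them and 34.7% of the genes of glycolysis and fermentation, against 38.8% over all genes. lhcb3 (GRMZM2G155216), an antenna protein, stood at 131, 59.4 and 122 CPM in wounding libraries, against 413, 687 and 408 CPM in control libraries (edgeR FDR = 0.00458). Glycolysis and fermentation had 5 higher and 12 lower of 49 tested (median -0.39) and 10 called without wounding replicate 3, with GPN1 (GRMZM2G035268), a cytosolic glyceraldehyde-3-phosphate dehydrogenase that makes NADPH, at 416, 1600.3 and 806 CPM in wounding libraries, against 48.8, 83.1 and 78.8 CPM in control libraries (edgeR FDR = 0.00285). Hb2 (GRMZM2G168898), a hemoglobin known from low oxygen, stood at 12, 1.05 and 9.8 CPM in wounding libraries, against 74.4, 67.6 and 80 CPM in control libraries (edgeR FDR = 0.00823). Iron, copper and zinc genes had 5 higher and 12 lower of 27 tested (median -0.80). The ferritin FER1 (GRMZM2G325575), which stores iron, stood at 610.2, 806 and 820.1 CPM in wounding libraries, against 238, 211 and 167 CPM in control libraries (edgeR FDR = 0.00211). A metallothionein, GRMZM2G099340, stood at 7.1, 5.89 and 14.1 CPM in wounding libraries, against 264, 303 and 317 CPM in control libraries (log2 fold change -5.03 ± 0.38 SE, edgeR FDR = 0.000499).

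Detoxification and redox genes followed. The test called 54.84% of glutathione transferases, 53.85% of cytochromes P450 and 46.15% of antioxidant enzymes, against 38.8% over all genes. Glutathione transferases, which tag toxic compounds, had 13 higher and 4 lower of 31 tested (median log2 fold change 0.68). gst35 (GRMZM2G161891) stood at 23.5, 30.3 and 16.6 CPM in wounding libraries, against 0.955, 1.22 and 1.57 CPM in control libraries (edgeR FDR = 0.00058). GST1 (GRMZM2G116273), the more abundant enzyme of untreated stem, stood at 56.5, 52 and 103 CPM in wounding libraries, against 282, 289 and 283 CPM in control libraries (edgeR FDR = 0.00297). Cytochromes P450 had 25 higher and 17 lower of 78 tested, with a median of 0.38 that turned to -0.07 with scaling by maize counts alone, where 19 were higher and 21 lower. GRMZM2G087875, annotated by the study as an isoflavone hydroxylase, stood at 121, 248 and 146 CPM in wounding libraries, against 2.15, 1.83 and 3.13 CPM in control libraries (log2 fold change 6.16 ± 0.40 SE, edgeR FDR = 0.000384). Antioxidant enzymes had 20 higher and 16 lower of 78 tested, but 14 higher and 32 lower with scaling by maize counts alone and 16 higher and 22 lower with contigs in the scaling, and 20 were called without control replicate 3. A thioredoxin, GRMZM2G102382, stood at 91.8, 160.2 and 106 CPM in wounding libraries, against 7.05, 12.7 and 8.22 CPM in control libraries (edgeR FDR = 0.000743).

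Among transcription factors, WRKY and NAC genes were called higher more often than lower. The test called 53.3% of WRKY, 50% of NAC, 53.3% of AP2/ERF, 57.7% of bHLH and 47.9% of bZIP factors. It called 35.9% of MYB and 35.1% of homeobox factors, against 38.8% over all genes. WRKY factors, of which many answer wounding and microbes, had 26 higher and 6 lower of 60 tested (median log2 fold change 1.06). GRMZM2G449681 stood at 174, 243 and 192 CPM in wounding libraries, against 16.1, 18.3 and 16.8 CPM in control libraries (log2 fold change 3.57 ± 0.21 SE, edgeR FDR = 0.000301). GRMZM2G083350 stood at 37.3, 65.5 and 43 CPM in wounding libraries, against 0.478, 1.07 and 1.31 CPM in control libraries (edgeR FDR = 0.00046). NAC factors, known from stress and senescence, had 18 higher and 6 lower of 48 tested (median 0.58). NAC1 (GRMZM2G347043), also called SNAC1, stood at 187, 163 and 177 CPM in wounding libraries, against 19.9, 23.2 and 20.5 CPM in control libraries (log2 fold change 3.05 ± 0.17 SE, edgeR FDR = 0.000301). NAC75 (GRMZM2G100583) stood at 581, 571 and 546 CPM in wounding libraries, against 65.9, 85.4 and 87.6 CPM in control libraries (edgeR FDR = 0.000499). Their wounding libraries were within 1.15-fold and 1.07-fold of each other. MYB factors had 22 higher and 15 lower of 103 tested (median -0.01), but 13 higher and 34 lower with scaling by maize counts alone and 14 higher and 22 lower with contigs in the scaling. AP2/ERF factors had 15 higher and 17 lower of 60 tested (median 0.03, of either sign by the scaling). GRMZM2G405094, a MYB factor, stood at 79.6, 178 and 96.3 CPM in wounding libraries, against 1.31, 1.83 and 0.652 CPM in control libraries (log2 fold change 6.54 ± 0.49 SE, edgeR FDR = 0.0005). The AP2/ERF factors GRMZM2G059799 and GRMZM2G011110 stood at 217, 294 and 396 CPM in wounding libraries, against 8, 9.46 and 10.2 CPM in control libraries, and at 1.09, 2.1 and 1.28 CPM in wounding libraries, against 45.7, 56.4 and 48.7 CPM in control libraries (edgeR FDR = 0.000321 and edgeR FDR = 0.000301). bHLH factors, by contrast, had 4 higher and 11 lower of 26 tested (median -0.75). bHLH35 (GRMZM2G173372) stood at 13.3, 21.3 and 15.5 CPM in wounding libraries, against 2.15, 1.83 and 1.31 CPM in control libraries (edgeR FDR = 0.000879). bHLH116 (GRMZM2G042895) stood at 5.1, 2.1 and 1.28 CPM in wounding libraries, against 43.4, 41.5 and 23.9 CPM in control libraries (edgeR FDR = 0.00223). Without control replicate 3, 24 MYB factors were called in place of 37, and 9 bHLH factors in place of 15. Homeobox factors had 8 higher and 12 lower of 57 tested, and 4 higher and 21 lower with scaling by maize counts alone. The bZIP factors had 15 higher and 8 lower of 48 tested, and 6 higher and 9 lower with scaling by maize counts alone. The 23 called bZIP factors became 15, 15 and 13 without control replicates 1, 2 and 3.

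Receptor-like kinases at the cell surface had 23 higher and 33 lower of 122 tested (median log2 fold change -0.24). The test called 45.9% of them and 44% of calcium signalling genes, against 38.8% over all genes. For heat shock proteins and chaperones the share called was 37.97%, and for peptidases 42.67%. A kinase related to wall-associated kinases, which sense the cell wall, rose: GRMZM2G359986 stood at 164, 239.7 and 134 CPM in wounding libraries, against 21.1, 21 and 16.1 CPM in control libraries (log2 fold change 3.21 ± 0.28 SE, edgeR FDR = 0.000672). WAK-RLK2 (GRMZM2G144028), of the same class, stood at 1.09, 0.631 and 1.28 CPM in wounding libraries, against 7.17, 4.58 and 7.31 CPM in control libraries (edgeR FDR = 0.00309), lower in each wounding library than in any control library. Calcium signalling had 20 higher and 13 lower of 75 tested with a median of 0.42, but 9 higher and 17 lower with scaling by maize counts alone and 18 called without control replicate 3. The calcium-dependent protein kinase CK1 (GRMZM2G321239) stood at 118, 128 and 117 CPM in wounding libraries, against 52.3, 46.4 and 38.4 CPM in control libraries (edgeR FDR = 0.00186). Heat shock proteins and chaperones had 13 higher and 17 lower of 79 tested, with a median of 0.01 that changed sign with the scaling, 8 higher and 29 lower with scaling by maize counts alone, and 17 were called without control replicate 3. Peptidases had 19 higher and 13 lower of 75 tested, and 10 higher and 31 lower with scaling by maize counts alone, and 19 were called without control replicate 3.

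To see where wounding stood among the other treatments, wounding was compared directly with plants that carried larvae, and wounds that received regurgitate with wounds that received buffer alone. These comparisons share the wounding libraries with the one described above. Between wounding and larva libraries, edgeR called 4216 genes higher (22.2%) and 4086 lower (21.5%) of 19023 tested. The larva libraries of replicates 2 and 3 were almost alike, with a chi-square per degree of freedom of 1.6, against 17.9 to 73.8 for the other pairs of replicates. With both summed as 1 sample, 2933 genes were higher and 2902 lower. On the scale of all 12 libraries, MPI (GRMZM2G028393) stood at 32702, 49608 and 26890.0 CPM in wounding libraries, against 1791, 4145 and 4256 CPM in larva libraries (log2 fold change 3.41, edgeR FDR = 0.00387). DHN1 (GRMZM2G079440) stood at 616, 1551 and 2983 CPM in wounding libraries, against 4.8, 4.87 and 4.93 CPM in larva libraries (log2 fold change 8.44, edgeR FDR = 0.000532). cesa7 (GRMZM2G025231) stood at 10.6, 7.67 and 12.1 CPM in wounding libraries, against 72.5, 81.7 and 73.6 CPM in larva libraries (log2 fold change -2.92, edgeR FDR = 0.000359). In each of the 3 genes the wounding libraries lay apart from the larva libraries, on the same side as from the control libraries, at 634, 1237 and 883 CPM of MPI, 19.3, 4.73 and 6.36 CPM of DHN1 and 203, 107 and 161 CPM of cesa7 on that scale. All 3 were taken from the genes called between wounding and control, and both comparisons use the same wounding libraries. The shared side therefore follows in part from the choice.

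Between regurgitate and wounding libraries, edgeR called 2 genes higher (0.0109%) and 9 lower (0.0492%) of 18285 tested, 0.0602% in all, while 3616 (19.8%) had an unadjusted p under 0.05. DESeq2 called 727 higher and 906 lower. Without regurgitate replicate 2, edgeR called 350 higher and 315 lower, without wounding replicate 1 it called 3 higher and 32 lower, and without any of the other 4 libraries it called none. The regurgitate libraries were far apart from each other, and contigs matched to fungi took 4.56%, 14.7% and 0.0603% of their counts in replicates 1, 2 and 3. MPI stood at 4154, 19489 and 5594 CPM in regurgitate libraries, against 32702, 49608 and 26890.0 CPM in wounding libraries (log2 fold change -1.93, edgeR FDR = 0.235), and lichenase-2 (GRMZM2G137535) at 216, 10829.9 and 134 CPM in regurgitate libraries, against 6389.6, 7928 and 7174 CPM in wounding libraries (log2 fold change -0.98, edgeR FDR = 0.754). For lichenase-2, regurgitate replicate 2 lay above the wounding libraries and the other regurgitate replicates far below them. Of the genes described above, the cytokinin response regulator RR7 (GRMZM2G096171) was called, at 106, 76.4 and 77.9 CPM in regurgitate libraries, against 11, 14 and 13.2 CPM in wounding libraries (log2 fold change 2.76, edgeR FDR = 0.0418). The homeobox factor GRMZM2G047715 was called in the other direction, at 2.67, 2.25 and 1.04 CPM in regurgitate libraries, against 29.7, 42.5 and 44.8 CPM in wounding libraries (log2 fold change -4.35, edgeR FDR = 0.0418).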

How the data were processed

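Total RNA of 12 stem samples, 3 per treatment, was sequenced by the authors with MACE. As their methods state, copies of a molecule, known by barcode and sequence, were discarded. The remaining reads were trimmed with Cutadapt and aligned with Novoalign 3.00.05, to the Ensembl maize genome at first and then to the transcripts. Unplaced reads went into an assembly, whose contigs were searched against protein collections. The values deposited by the authors and used here are raw counts of reads per feature in each library. Reads could have several places in the genome, so counts of near-identical genes are uncertain, and whether strand was used in counting is not given in the sources used here. The deposited means, fold changes, p-values and FDRs of the authors' own comparisons were not used, and 0 columns of counts per sample were left without a sample.

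Features with a maize gene identifier were filtered with filterByExpr (minimum count 10, minimum total count 15), scaled by TMM and tested with edgeR 4.0.16 (limma 3.58.1, R 4.3.3), with the quasi-likelihood test on the 6 libraries of each comparison, Benjamini-Hochberg adjustment and an FDR threshold of 0.05. DESeq2 1.42.0 was an alternative, as were RLE scaling, scaling by maize counts alone, scaling with every feature, other filters, features of 1 identifier, a fit of all 12 libraries, the replicate number as a block and leaving out each library. Larva replicates 2 and 3 summed as 1 sample was chosen after seeing the data. A row that names no feature was left out, at 0.163% to 0.236% of the counts in wounding libraries and 0.274% to 0.289% in control libraries. Depth was 7970625 to 10056972 counts in wounding libraries and 6474738 to 8508332 in control libraries, and precision was set by the spread between 3 plants. Intervals, and floors of 3 counts over a group, cover counting error only.

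Gene descriptions were those of the deposited table and of the study, and 17430 of 29723 maize features matched the RefSeq gene table, 174 of them with a symbol. The genes named are the 12 with the largest log2 fold change in each direction among called, described genes whose groups do not overlap, up to 3 called in each direction per gene list, and the 3 most abundant called in each direction. Of those chosen from the lists, the text describes some, all with a call kept without any 1 library, and it says where a gene was chosen after its values were seen. Gene lists are word patterns in the descriptions. The members and the lists were chosen with earlier results of these data known. The test was tried on simulated counts with known changes before use.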

Additional observations from a re-analysis of the deposited data

Results flagged for a closer look

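Outside the maize genes, 4 classes of contigs held more of the counts in every wounding library than in any control library, each at an exact two-sided permutation p of 0.1, the smallest that 3 against 3 libraries allow. Contigs as a whole took 25.45% of the counts in wounding libraries, against 3.157% in control libraries (means of 3). Contigs matched to fungi took 16.05% in wounding libraries, against 0.389% in control libraries. Contigs matched to Zea mays took 2.538% in wounding libraries, against 1.695% in control libraries. Contigs with no matched protein took 6.682% in wounding libraries, against 1.051% in control libraries. By the name of the match, contigs matched to Colletotrichum took 1.12%, 2.70% and 4.28% in wounding libraries, against 0.113%, 0.043% and 0.0848% in control libraries, so the order of the wounding libraries differed from that of Gibberella moniliformis. Contigs matched to Sporisorium or Ustilago took 0.782%, 2.95% and 2.63% in wounding libraries, against 0.133%, 0.0521% and 0.146% in control libraries. A best protein match does not name the species that a contig came from, and the source of these counts was not tested.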

How the results depend on the processing

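Between wounding and control, the number of called genes stayed within 1.5 times of 7438 under every alternative run (5263 without control replicate 3, the lowest, to 9107 with scaling by maize counts alone). Only its split moved, to 2366 higher and 6741 lower with scaling by maize counts alone and to 2669 higher and 4961 lower with every feature in the scaling, against 3747 and 3691. DESeq2 called 8016. No gene named in the text reversed its direction under any alternative while it was called. The groups share replicate numbers, but same-numbered libraries deviated with correlations of -0.24, -0.01 and -0.16, so the numbers do not pair them, and with the replicate block 5404 genes were called. It took the called members to 55 in place of 125 for cytosolic ribosomal proteins (6 higher, 49 lower), to 7 in place of 13 for cytokinin genes and 7 in place of 11 for protease inhibitors, to 13 in place of 23 for tubulins, actins and motors and 15 in place of 23 for bZIP factors, to 4 in place of 7 for the C4 and Calvin cycles and to 0 in place of 2 for the proteasome.

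Between regurgitate and wounding, edgeR's 11 calls (2 higher, 9 lower) became 1633 with DESeq2 (727 higher, 906 lower) and 0 with the replicate block, where 4570 genes had an unadjusted p under 0.05. With 1 library left out they ranged from 0 to 665 in all, from 0 to 350 higher and from 0 to 315 lower. Between wounding and larva, 8302 calls became 8544 with DESeq2, 6148 with the replicate block and 5646 to 8453 with 1 library left out. The causes were not tested. Depth limits single genes near the floor of 3 counts over a group, which is 0.201 CPM in wounding libraries and 0.133 CPM in control libraries.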

Other observations

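Other functions of the wounded stem were near the shares over all genes or rested on few genes. Of 13 tested genes of phosphate starvation and transport, 3 rose and 4 fell, with a median log2 fold change of 0.40 that turned to -0.01 with scaling by maize counts alone. The acid phosphatase GRMZM2G102404 stood at 18.2, 35.2 and 24.1 CPM in wounding libraries, against 9.44, 7.47 and 9.66 CPM in control libraries (edgeR FDR = 0.00621), and a glycerophosphodiester phosphodiesterase, GRMZM2G058227, at 6.01, 7.16 and 4.26 CPM in wounding libraries, against 20.7, 30.5 and 23.5 CPM in control libraries (edgeR FDR = 0.00187). Of 24 tested genes of the C4 and Calvin cycles, 4 rose and 3 fell, but 3 were higher and 7 lower with scaling by maize counts alone. Of them 3 were called without wounding replicate 2 or without control replicate 2, and 4 without control replicate 3. A carbonic anhydrase, GRMZM2G113191, an enzyme that hydrates carbon dioxide, stood at 168, 247 and 101 CPM in wounding libraries, against 1.43, 2.14 and 1.17 CPM in control libraries (log2 fold change 6.76 ± 0.46 SE, edgeR FDR = 0.000414), with no overlap between the groups. Of 8 tested low-oxygen genes 1 rose and 2 fell, and 1 was called without wounding replicate 2 or without wounding replicate 3. Of 6 tested ABC transporters 1 fell and none rose by edgeR.

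Some abundant genes stood highest in the libraries with the most fungal counts, in wounding as in regurgitate plants. On the scale of all 12 libraries, HSP70 (GRMZM2G310431) stood at 761, 3721 and 31.4 CPM in regurgitate libraries and 385, 1474 and 433 CPM in wounding libraries, and ACT1 (GRMZM2G126010) at 2012, 8628 and 277 CPM in regurgitate libraries and 852, 1543 and 767 CPM in wounding libraries. Contigs matched to fungi took 4.56%, 14.7% and 0.0603% of the counts in the same regurgitate libraries and 10.9%, 24.8% and 12.4% in the wounding libraries, and their part in these levels was not tested. asn3 (GRMZM2G053669) stood at 47.2, 1245 and 177 CPM in regurgitate libraries and 1847, 3161 and 790.1 CPM in wounding libraries. The order of the other libraries did not always follow the fungal shares. asn3 was lower in regurgitate replicate 1 than in replicate 3, and asn3 and ACT1 were higher in wounding replicate 1 than in replicate 3. MPI, given above, was also highest in replicate 2 of both groups.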
